A study of Mus musculus with 6 samples.

Results

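The genes described here are 41 genes of DNA replication and of the passage from G1 into S phase, named in a list by symbol. The list was chosen with earlier results of these data known. All 41 were found among the 22099 genes of the expression table and all 41 had at least 1 RPKM in at least 2 libraries. RPKM is a read number scaled to transcript length and to the reads of the library, so levels of different genes can be set side by side. The RNA was polyadenylated RNA of 6 cultures started from whole bone marrow of C57BL/6 mice. Every culture, wt included, received BCR-ABL p185 at day 0 from a retrovirus that also encodes yellow fluorescent protein (YFP), and RNA was taken after 14 days in culture. The labels call the cells transformed proB-ALL, a leukaemia of early B cells, and give 3 genotypes with 2 biological replicates each: Ikaros ZnF4-/- (ZnF4 mutant), Ikaros ZnF1-/- (ZnF1 mutant) and wt. Ikaros is a zinc finger transcription factor of lymphocyte development and a tumour suppressor of B cell leukaemia, and fingers 1 and 4 are in its DNA-binding domain. The labels give neither the age of the mice nor a sort of transduced cells, and do not say whether the replicates came from separate animals, so p-values measure the spread between these libraries.

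Before S phase, the origin recognition complex, Cdc6 and Cdt1 load the MCM helicase onto replication origins, and the GINS complex and Mcm10 help to turn it into an active fork. At the fork, primase and the polymerases copy the strands, the Rfc complex loads the Pcna clamp, and Fen1 and Lig1 join the fragments of the lagging strand. Cyclin E and the E2F factors drive cells from G1 into S phase, and E2F factors activate many of the replication genes; these genes are known for high RNA levels in cycling cells, such as large pro-B and pre-B cells and leukaemia cells, and for low ones in resting lymphocytes. In RNA from whole cultures, fewer cells of a type and less RNA per cell cannot be told apart.

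The promoter windows of 5 members are printed to show how unequally matches to the letters of the E2F site are spread over these genes. Each runs from 250 bases before to 50 bases after the gene's start in RefSeq (build GRCm38.p6), and a promoter was matched for 33 of the 41 members. Where a gene had several starts (Lig1, Fen1, Mcm7, Orc2 and Uhrf1 among the members), only the first listed was searched. The search was for TTTCCCGC or TTTCGCGC or TTTGCCGC or TTTGGCGC on both strands, and capitals mark the matches. Mcm6 (chr1:128359656-128359955, minus strand) held 3 matches, Cdc6 (chr11:98907901-98908200, plus strand), Pola1 (chrX:93632106-93632405, minus strand) and Pold1 (chr7:44548766-44549065, minus strand) held 1 each, and Tyms (chr5:30073576-30073875, minus strand) held 0.
Mcm6: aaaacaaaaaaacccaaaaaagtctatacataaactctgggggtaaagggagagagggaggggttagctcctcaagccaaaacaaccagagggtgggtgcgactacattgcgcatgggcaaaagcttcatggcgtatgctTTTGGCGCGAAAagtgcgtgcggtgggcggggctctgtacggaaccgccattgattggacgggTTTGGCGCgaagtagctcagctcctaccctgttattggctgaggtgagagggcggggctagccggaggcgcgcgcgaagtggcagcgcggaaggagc
Cdc6: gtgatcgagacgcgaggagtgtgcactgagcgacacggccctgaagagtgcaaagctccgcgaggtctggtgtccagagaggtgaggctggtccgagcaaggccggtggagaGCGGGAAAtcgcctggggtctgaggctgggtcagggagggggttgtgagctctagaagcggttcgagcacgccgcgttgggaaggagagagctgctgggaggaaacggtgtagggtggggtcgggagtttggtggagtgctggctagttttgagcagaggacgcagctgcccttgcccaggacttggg
Pola1: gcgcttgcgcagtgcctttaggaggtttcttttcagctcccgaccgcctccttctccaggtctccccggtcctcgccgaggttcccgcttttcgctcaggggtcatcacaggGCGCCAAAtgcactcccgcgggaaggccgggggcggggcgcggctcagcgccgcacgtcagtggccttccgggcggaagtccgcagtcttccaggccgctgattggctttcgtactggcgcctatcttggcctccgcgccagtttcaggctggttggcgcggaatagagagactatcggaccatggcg
Pold1: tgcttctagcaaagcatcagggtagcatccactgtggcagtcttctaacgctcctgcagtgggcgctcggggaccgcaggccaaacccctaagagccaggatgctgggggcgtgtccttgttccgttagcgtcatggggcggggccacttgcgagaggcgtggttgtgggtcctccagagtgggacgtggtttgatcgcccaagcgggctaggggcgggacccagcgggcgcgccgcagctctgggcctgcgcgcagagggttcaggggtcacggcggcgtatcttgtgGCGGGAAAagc
Tyms: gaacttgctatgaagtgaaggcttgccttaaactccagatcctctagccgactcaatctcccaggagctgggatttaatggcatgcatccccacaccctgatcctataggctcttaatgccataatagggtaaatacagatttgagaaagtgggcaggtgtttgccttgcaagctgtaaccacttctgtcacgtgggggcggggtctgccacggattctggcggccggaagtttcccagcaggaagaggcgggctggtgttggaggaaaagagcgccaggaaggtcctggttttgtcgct
A match was present in 10 of the 33 members (30.3%), against 4.38% of the promoters of 7996 tested genes and 2.32% of 27025 promoters. The 10 were Mcm3, Mcm5, Mcm6, Mcm7, Cdc6, Cdt1, Gins3, Rfc3, Pola1 and Pold1. The CCAAT box (CCAAT, both strands) was in 60.6% of the members, against 39.3% of the tested genes. The core of the Ikaros site (TGGGAA, both strands) was in 36.4% of the members, against 22.8% of the tested genes, and the CHR element of mitotic genes (TTTGAA or TTCGAA) in 15.2% against 13.8%. TATAAA was in 3.03% of the members, against 6.64% of the tested genes. Matches that overlap each other or another motif were each counted, as are the first 2 of the 3 in Mcm6. A match is a description of the letters, not a mapped binding site. The search would miss a site with other letters, outside the window or at another start.

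The members were expressed at 4.4 to 234.4 RPKM in the 6 libraries, and their RPKM summed to 2944.0 and 2825.0 in the ZnF4 mutant, to 2288.1 and 2105.0 in the ZnF1 mutant and to 2579.6 and 2291.6 in the wt libraries (replicate 1 and then replicate 2, here and throughout). Weighted by transcript length, the members made up 0.934% and 0.939% of each library's total in the ZnF4 mutant, 0.711% and 0.721% in the ZnF1 mutant, against 0.815% and 0.791% in wt. The ZnF4 mutant libraries were thus the highest, the ZnF1 mutant libraries the lowest, and no group overlapped another in this share. A ZnF4 mutant library held the highest value for 38 of the 41 members, 17 in replicate 1 and 21 in replicate 2. The lowest value was in a ZnF1 mutant library for 30 members, in a wt library for 10 and in a ZnF4 mutant library for 1. The same counts were not made over all genes. Of all genes tested, 57% had a positive log2 fold change in the ZnF4 mutant against wt, and 54.6% against the ZnF1 mutant.

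**Figure D1:**
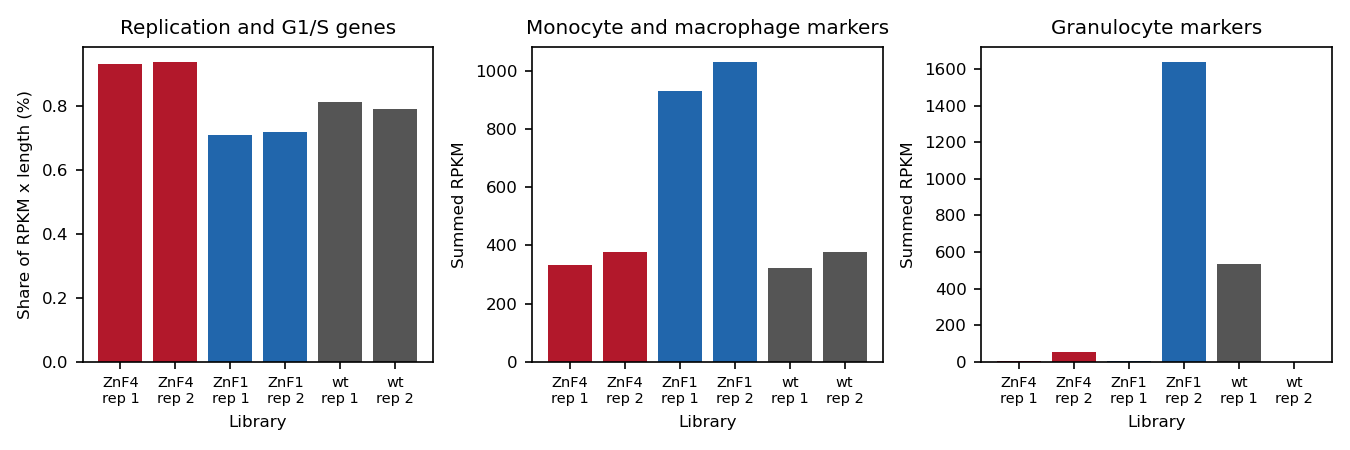
Bars, 1 per library in the order ZnF4 mutant, ZnF1 mutant and wt, of the share of length-weighted RPKM that the 41 members made up (left, %), the summed RPKM of monocyte and macrophage markers (middle) and that of granulocyte markers (right). The members' share is 0.934% and 0.939% in the ZnF4 mutant and 0.711% and 0.721% in the ZnF1 mutant, against 0.815% and 0.791% in wt, while the macrophage sum is highest in the ZnF1 mutant (931.6 and 1031.7) and the granulocyte sum in ZnF1 mutant replicate 2 and wt replicate 1 (1639.2 and 534.1).

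The libraries were less alike in their other cells than in their B lineage RNA, whose 12 markers summed to 3673.3 and 2426.1 RPKM in the ZnF4 mutant, 3638.2 and 3112.6 in the ZnF1 mutant, against 3228.6 and 2398.9 in wt. Granulocyte markers summed to 6.2 and 53.4 RPKM in the ZnF4 mutant, 2.1 and 1639.2 in the ZnF1 mutant, against 534.1 and 0.5 in wt. In these, ZnF1 mutant replicate 2 and wt replicate 1 stood apart. Monocyte and macrophage markers summed to 333.5 and 376.4 RPKM in the ZnF4 mutant, 931.6 and 1031.7 in the ZnF1 mutant, against 322.0 and 378.4 in wt. Stromal markers summed to 85.8 and 80.2, 352.1 and 181.1, and 75.5 and 83.9 RPKM in the same order. The ZnF1 mutant cultures therefore carried more macrophage and stromal RNA, while the ZnF4 mutant and wt cultures were close in both sums. Single stromal markers moved in opposite directions between these 2 genotypes. Fn1 had 35.3 and 48.2 RPKM in the ZnF4 mutant against 16.2 and 30.4 in wt. Sparc had 17.6 and 9.2 RPKM in the ZnF4 mutant against 22.3 and 17.1 in wt. Erythroid markers summed to 0.6 to 26.6 RPKM, and T and NK markers to 0.4 to 2.5 RPKM, with Cd3e, Cd3g, Cd8a and Ncr1 at 0 in all 6 libraries.

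The members also differed by replicate number. Replicates with the same number deviated together across the groups (correlation over the 41 members 0.983 for ZnF4 mutant and wt, 0.926 for ZnF1 mutant and wt, 0.912 for ZnF4 and ZnF1 mutants). Tk1 was lower in replicate 2 by a mean of 1.33 on the log2 scale, Cdt1 by 0.94 and Pold1 by 0.83, whereas Ccne2 was higher there by 0.74 and Pola1 by 0.58. This difference followed the GC content of the transcripts: members rich in G and C, such as Pold1 (60.74%) and Cdt1 (58.79%), were lower in replicate 2, and poor ones, such as Ccne2 (36.29%) and Orc2 (40.83%), were higher. Spearman's rho was -0.744 over the 41 members and -0.741 over 11142 tested genes with a GC value, as a description over genes that share the same 6 libraries. For the difference between ZnF4 mutant and wt, rho with GC content was -0.031 over the members, for ZnF1 mutant and wt it was 0.181, and for the ZnF4 and ZnF1 mutants -0.224. The fit of group means alone counts the replicate difference as spread, while a fit that takes the replicate number as a block sets it apart, so both are given.

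**Figure D2:**
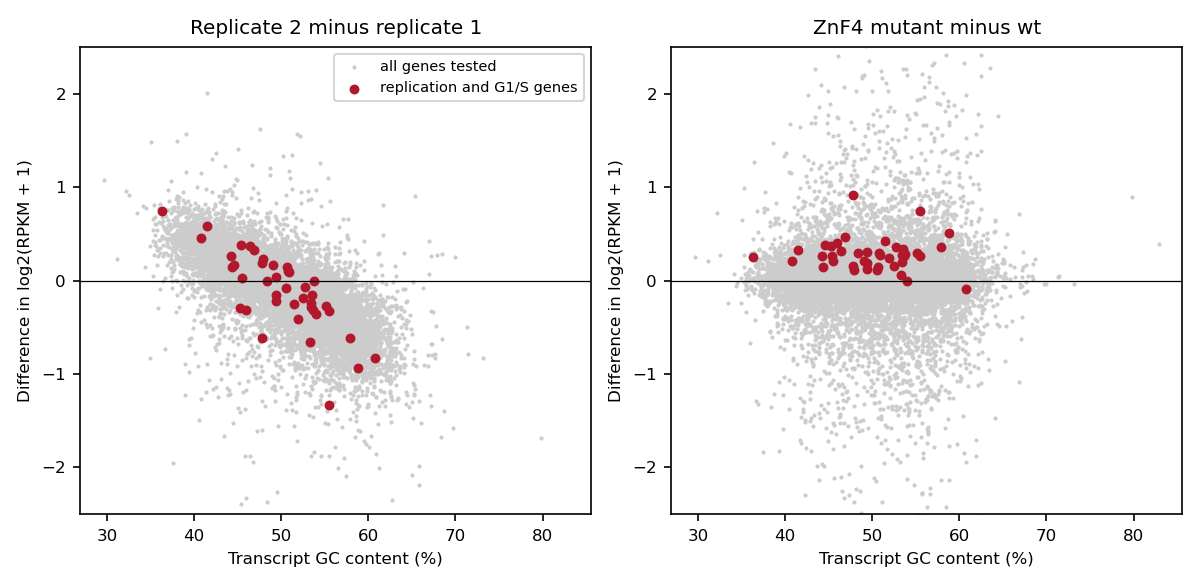
Transcript GC content in percent (x axis) against the mean log2 difference of replicate 2 minus replicate 1 and against the log2 fold change of ZnF4 mutant over wt (y axes), for the tested genes in grey and the members in red. The replicate difference falls with GC content (rho -0.744 over the members), and rho is -0.031 for the difference of ZnF4 mutant and wt; genes beyond the axis limits are not drawn.

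In the ZnF4 mutant against wt, the comparison that asks what loss of finger 4 changes in these leukaemia cells, the replication and G1/S genes were higher together by a small amount. Their median log2 fold change was 0.26, against 0.04 over all 11345 genes tested, and it was positive for 40 of 41 members, against 57% of all genes. Within both replicate numbers 38 of the 41 were higher, against 42.5% of all genes, with medians of 0.23 in replicate 1 and 0.31 in replicate 2. For 18 members both ZnF4 mutant libraries were above both wt libraries, against 17.8% of all genes. The changes by role were closest to 0 for the polymerases and primase (median 0.15) and furthest from it for nucleotide supply (0.57). In the same comparison the macrophage markers had a median of 0.06 and the stromal markers of -0.11. Without the libraries rich in granulocyte RNA, wt replicate 1 and ZnF1 mutant replicate 2, the members' median was 0.29. In that fit wt replicate 2 was the only wt library, so the replicate numbers were not balanced.

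No member passed an adjusted p of 0.05 in this comparison in limma on log2(RPKM + 1) without the block, where 1.43% of all genes were called higher and 1.3% lower. The lowest adjusted p among the members was 0.42, and 1 member (Tyms) had an unadjusted p under 0.05, as did 5.92% of all genes among the higher and 5.79% among the lower. With the replicate block, 11 of 41 members were called higher and 0 lower, where 8.02% of all genes were called higher and 7.92% lower. These were Tyms, Tk1, Gins1, Rpa2, Ccne1, Rfc4, Pola1, Mcm10, Rfc1, Fen1 and Cdt1. Just outside the threshold were Lig1 (adjusted p = 0.054), Rrm2 (0.055) and Cdc6 (0.058) in the same fit. With any 1 library left out, the block called fewer members, also without a ZnF1 mutant library, which is not in this comparison. Those fits have 1 residual degree of freedom, so the loss cannot be tied to single libraries. The share of all genes called in them is not given. For single members, values without 1 library are given beside their fold change from fits without the block, where leaving it out moved a called fold change by over 1.5 times. Such fits are unbalanced in replicate number, so these values also carry the replicate difference. Within replicate numbers 1 and 2 the log2 differences from wt were 0.68 and 0.81 for Tk1, 0.36 and 0.66 for Cdt1 and 0.29 and 0.38 for Pola1.

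**Figure D3:**
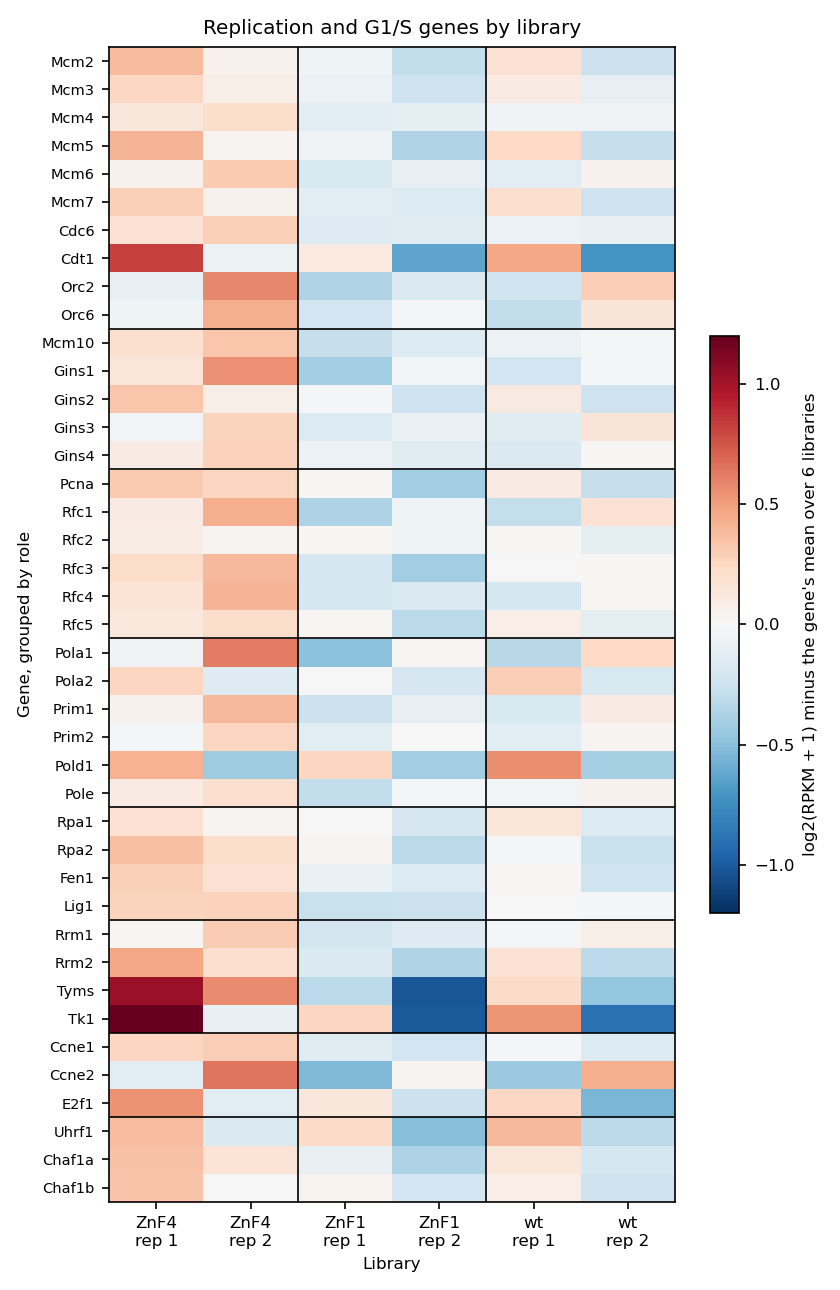
Log2(RPKM + 1) of each of the 41 members (rows, grouped by role) in each of the 6 libraries (columns, ZnF4 mutant, ZnF1 mutant, wt) as a deviation from the member's mean over the 6 libraries. The ZnF4 mutant columns are above the mean for most members and the ZnF1 mutant columns below it, while Tk1, Cdt1, Pold1, Ccne2 and Pola1 differ between replicate 1 and replicate 2 in each group.

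In the ZnF1 mutant against wt the members lay slightly lower, with a median log2 fold change of -0.13, against -0.01 over all genes, and a negative value for 38 of 41, against 52.3% of all genes. The 3 at or above 0 were E2f1, Rfc2 and Rpa2, where 47.6% of all genes were positive. Within both replicate numbers 30 of 41 were lower, against 35.1% of all genes. Both ZnF1 mutant libraries were below both wt libraries for 6 members (Mcm4, Cdc6, Mcm10, Rfc3, Lig1 and Rrm1), against 12.7% of all genes. That count was close to the share of all genes. In limma without the block 0 members and 0 of the 11345 genes were called (0% higher, 0% lower), although 1040 genes (9.17%) were higher and 241 (2.12%) lower at an unadjusted p under 0.05, with 0 members among them. With the block 1 member, Tyms, was called lower and 0 higher, where 2.88% of all genes were called lower and 10.4% higher, and the Tyms call was lost without either ZnF1 mutant or either wt library and kept without either ZnF4 mutant library. Of 10 macrophage markers 8 were higher with the block (median log2 fold change 1.36), and of 9 stromal markers 8 (median 1.38). Their part in the lower replication genes was not tested. Without the same pair of granulocyte-rich libraries the members' median was 0.03, a turned sign. The libraries left in that comparison differ in replicate number, so 0.03 also carries the replicate difference. Within replicate numbers 1 and 2 the members' medians were -0.13 and -0.11.

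Set against the ZnF1 mutant, the ZnF4 mutant had higher replication genes across the list, with a median log2 fold change of 0.38, against 0.04 over all genes, and a positive value for 41 of 41 members, against 54.6% of all genes. Within both replicate numbers 40 of 41 were higher (41.2% of all genes), with medians of 0.35 and 0.46, and Pold1 was the exception. Both ZnF4 mutant libraries were above both ZnF1 mutant libraries for 30 members, against 21.7% of all genes. Of the opposite kind there were 0 members on each measure, where 45.3% of all genes were negative, 34.8% were lower within both replicate numbers and 21.8% had both libraries below both. In limma without the block 0 members were called (1.61% of all genes higher, 3.75% lower), the lowest adjusted p was 0.091 for Tyms, and 8 members had an unadjusted p under 0.05 and were higher, as were 6.84% of all genes. With the block 29 of 41 were called higher and 0 lower, where 15.9% of all genes were called higher and 19.2% lower. With any 1 library left out, the block called fewer members, also without a wt library, which is not in this comparison. The share of all genes called in those fits is not given. In this comparison macrophage and stromal markers were lower in the ZnF4 mutant (median log2 fold change -1.41 and -1.87, with 8 genes of each list called lower with the block), and their part in the difference was not tested.

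**Figure D4:**
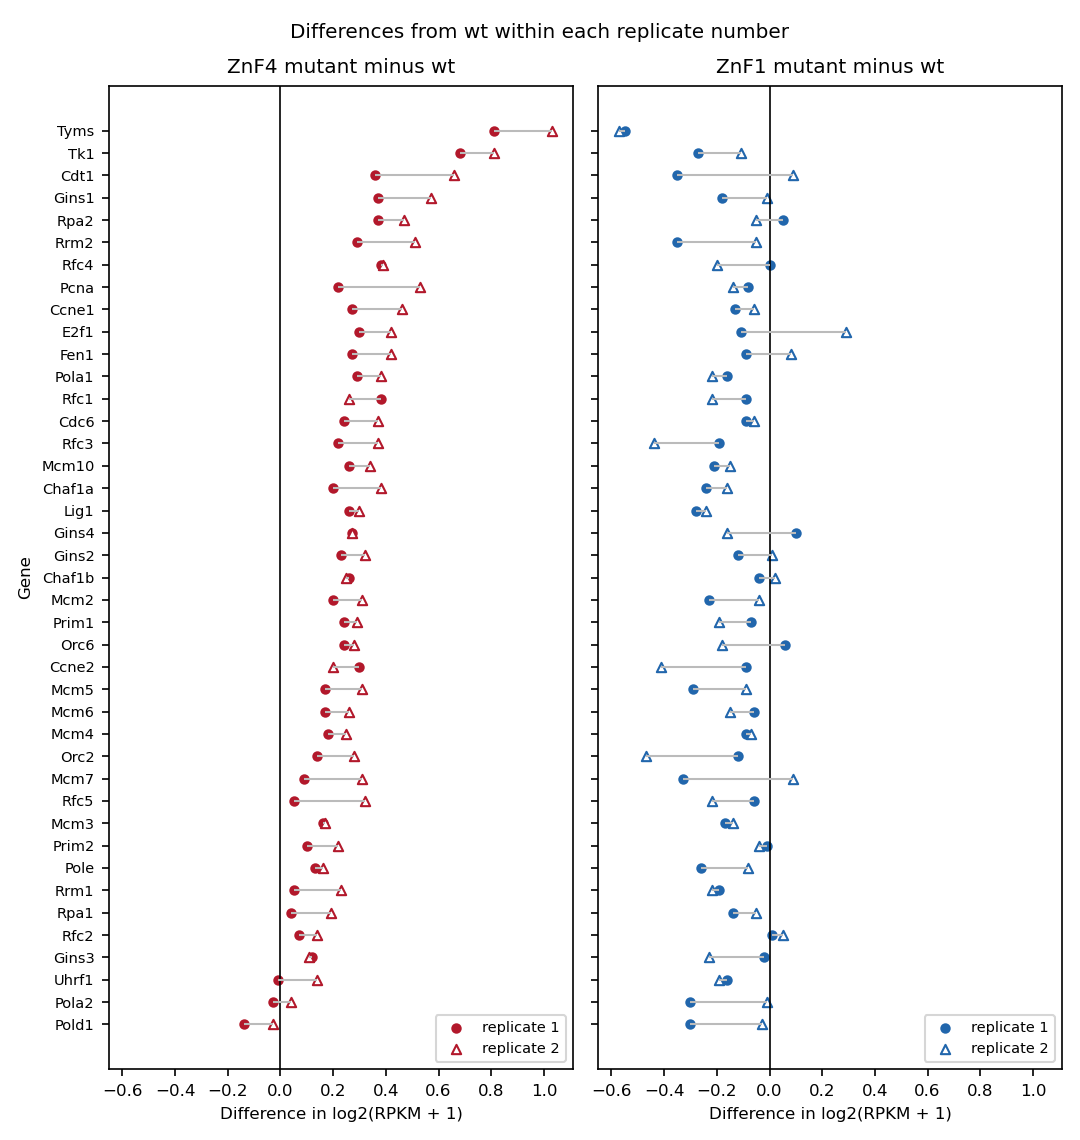
Difference in log2(RPKM + 1) from wt of each member (down the page) within replicate 1 (circles) and replicate 2 (triangles), for the ZnF4 mutant (left) and the ZnF1 mutant (right), which share the wt libraries. In the ZnF4 mutant 38 of 41 members are to the right of 0 in both, with Tyms furthest, and in the ZnF1 mutant 30 of 41 are to the left of 0 in both.

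The MCM helicase is a ring of 6 subunits that unwinds the DNA at the fork. Mcm3 was the most abundant, with 234.4 and 205.9 RPKM in the ZnF4 mutant and 187.5 and 165.6 RPKM in the ZnF1 mutant, against 210.4 and 183.1 in wt. Mcm2 had 186.5 and 148.8 RPKM in the ZnF4 mutant and 137.9 and 116.4 RPKM in the ZnF1 mutant, against 161.8 and 119.7 in wt. Mcm6 had 160.9 and 193.3 RPKM in the ZnF4 mutant and 136.5 and 144.9 RPKM in the ZnF1 mutant, against 142.8 and 161.4 in wt. In each of these subunits the ZnF4 mutant was above wt within both replicates, by 1.11- and 1.12-fold for Mcm3, 1.15- and 1.24-fold for Mcm2 and 1.13- and 1.2-fold for Mcm6, while the ZnF4 mutant and wt libraries overlapped. Mcm5 had 173.8 and 133.7 RPKM in the ZnF4 mutant and 126.8 and 101.2 RPKM in the ZnF1 mutant, against 154.8 and 107.5 in wt. Its ZnF4 mutant and wt libraries overlapped. Mcm4 had 109.8 and 115.7 RPKM in the ZnF4 mutant and 91.2 and 92.4 RPKM in the ZnF1 mutant, against 97.0 and 97.0 in wt. Its ZnF4 mutant libraries were above both others and its ZnF1 mutant libraries below both wt libraries. Mcm7 averaged 51.9 ± 6.08, 41.3 ± 0.849 and 45.6 ± 10.3 RPKM in the ZnF4 mutant, ZnF1 mutant and wt (SD, n = 2 each). Mcm7 lies over other genes in RefSeq, among them Ap4m1 and the microRNAs Mir106b, Mir93 and Mir25, so its reads may be shared. None of the subunits was called in either mutant against wt, with or without the block. Between the ZnF4 and ZnF1 mutants the block called 5 of the 6 higher, where it called 15.9% of all genes higher, and Mcm7 missed (adjusted p = 0.084). For example, Mcm5 had log2 fold change 0.43, SE 0.26, adjusted p = 0.49 without the block and 0.018 with it, with 0.24 without ZnF4 mutant replicate 1 and 0.61 without ZnF4 mutant replicate 2. Mcm2 had log2 fold change 0.39, SE 0.23, adjusted p = 0.47 without the block and 0.02 with it, with 0.23 without ZnF4 mutant replicate 1 and 0.55 without ZnF4 mutant replicate 2. Mcm3 differed by 0.32 (SE 0.18 and adjusted p = 0.44 without the block, adjusted p = 0.025 with it). Mcm4 differed by 0.29 (SE 0.14 and adjusted p = 0.36 without the block, adjusted p = 0.03 with it). Mcm6 differed by 0.32 (SE 0.18 and adjusted p = 0.42 without the block, adjusted p = 0.033 with it). The Mcm6 value was 0.19 without ZnF4 mutant replicate 2 and 0.46 without ZnF4 mutant replicate 1.

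The loading factors had lower levels than Mcm2, Mcm3, Mcm4, Mcm5 and Mcm6 in each library. Cdt1, which brings MCM to the origin and is destroyed in S phase, had 63.9 and 34.2 RPKM in the ZnF4 mutant and 38.8 and 22.7 RPKM in the ZnF1 mutant, against 49.7 and 21.3 in wt. Replicate 1 was far above replicate 2 in each group, so the groups overlapped, but the ZnF4 mutant exceeded wt by 1.29- and 1.61-fold within replicates. Against wt the ZnF4 mutant had log2 fold change 0.51, SE 0.52, adjusted p = 1 without the block and 0.049 with it, and the Cdt1 log2 fold change was -0.09 without wt replicate 2, 0.07 without ZnF4 mutant replicate 1, 0.95 without ZnF4 mutant replicate 2 and 1.1 without wt replicate 1. Against the ZnF1 mutant it had log2 fold change 0.64, SE 0.52, adjusted p = 0.63 without the block and 0.016 with it, with 0.20 without ZnF4 mutant replicate 1 and 1.08 without ZnF4 mutant replicate 2. Cdc6, the ATPase that works with Cdt1, had 11.3 and 12.3 RPKM in the ZnF4 mutant and 8.8 and 8.9 RPKM in the ZnF1 mutant, against 9.4 and 9.3 in wt. Its 6 values fell into 3 groups that did not overlap, with the ZnF4 mutant highest, and the ZnF4 mutant was higher than the ZnF1 mutant with the block (log2 fold change 0.38, SE 0.14, adjusted p = 0.23 without the block and 0.02 with it). Orc2, a subunit of the origin recognition complex, had 42.1 and 67.6 RPKM in the ZnF4 mutant and 34.9 and 39.7 RPKM in the ZnF1 mutant, against 38.0 and 55.4 in wt. In each group replicate 2 was the higher. Its difference between the ZnF4 and ZnF1 mutants passed with the block (log2 fold change 0.51, SE 0.30, adjusted p = 0.47 without the block and 0.036 with it, with 0.17 without ZnF4 mutant replicate 2 and 0.84 without ZnF4 mutant replicate 1). Orc6, another subunit, averaged 43 ± 10.4, 33.9 ± 3.54 and 35.6 ± 7.99 RPKM in the ZnF4 mutant, ZnF1 mutant and wt (SD, n = 2 each) and was called in none of the comparisons.

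Of the factors that activate the helicase, Gins1 and Mcm10 stood out. Gins1, a GINS subunit, had 60.1 and 79.8 RPKM in the ZnF4 mutant and 40.8 and 53.1 RPKM in the ZnF1 mutant, against 46.2 and 53.6 in wt. The ZnF4 mutant libraries were both above the other 4. The ZnF4 mutant was above wt by 1.3- and 1.49-fold (log2 fold change 0.47, SE 0.22, adjusted p = 0.57 without the block and 0.021 with it, with 0.27 without ZnF4 mutant replicate 2 and 0.67 without ZnF4 mutant replicate 1). Against the ZnF1 mutant it had log2 fold change 0.56, SE 0.22, adjusted p = 0.26 without the block and 0.0078 with it, with 0.36 without ZnF4 mutant replicate 2 and 0.76 without ZnF4 mutant replicate 1. Mcm10, which binds the helicase and helps the fork to start, had 38.0 and 41.8 RPKM in the ZnF4 mutant and 27.1 and 29.4 RPKM in the ZnF1 mutant, against 31.5 and 32.7 in wt. No group overlapped another for Mcm10, with the ZnF4 mutant highest and the ZnF1 mutant lowest. The ZnF4 mutant differed from wt with log2 fold change 0.30, SE 0.14, adjusted p = 0.57 without the block and 0.044 with it. It differed from the ZnF1 mutant with log2 fold change 0.48, SE 0.14, adjusted p = 0.15 without the block and 0.0077 with it. The ZnF1 mutant against wt did not pass, with log2 fold change -0.18, SE 0.14, adjusted p = 0.99 without the block and 0.16 with it. Gins2, also of GINS, had 55.7 and 46.3 RPKM in the ZnF4 mutant and 43.6 and 37.0 RPKM in the ZnF1 mutant, against 47.5 and 36.8 in wt. It passed with the block only between the ZnF4 and ZnF1 mutants (log2 fold change 0.33, SE 0.20, adjusted p = 0.49 without the block and 0.024 with it, with 0.20 without ZnF4 mutant replicate 1 and 0.46 without ZnF4 mutant replicate 2). Of the remaining GINS subunits, Gins3 averaged 8.9 ± 1.41, 7.35 ± 0.354 and 8.15 ± 1.34 RPKM and Gins4 32.6 ± 2.97, 26.2 ± 1.06 and 26.8 ± 2.47 RPKM in the ZnF4 mutant, ZnF1 mutant and wt (SD, n = 2 each), and neither was called in any comparison.

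The sliding clamp and its loader followed the same order of groups, apart from Rfc2. Pcna, the clamp that holds the polymerases on DNA, had 58.9 and 56.4 RPKM in the ZnF4 mutant and 47.7 and 35.0 RPKM in the ZnF1 mutant, against 50.6 and 38.8 in wt. The ZnF4 mutant pair lay above the other 4, and the difference from the ZnF1 mutant passed with the block (log2 fold change 0.49, SE 0.22, adjusted p = 0.33 without the block and 0.027 with it, with 0.27 without ZnF1 mutant replicate 2 and 0.70 without ZnF1 mutant replicate 1). RefSeq names the pseudogenes Pcna-ps1 and Pcna-ps2, and the sources used here do not say how reads shared with such copies were counted. Rfc1, the large loader subunit, had 42.9 and 54.3 RPKM in the ZnF4 mutant and 30.6 and 38.6 RPKM in the ZnF1 mutant, against 32.7 and 45.1 in wt. Within replicates it was higher in the ZnF4 mutant than in wt by 1.31- and 1.2-fold (log2 fold change 0.32, SE 0.24, adjusted p = 0.89 without the block and 0.045 with it, with 0.10 without wt replicate 1 and 0.55 without wt replicate 2). Rfc1 differed between the ZnF4 and ZnF1 mutants with log2 fold change 0.48, SE 0.24, adjusted p = 0.38 without the block and 0.0093 with it, with 0.31 without ZnF4 mutant replicate 2 and 0.64 without ZnF1 mutant replicate 2. Rfc4, a small subunit that overlaps Eif4a2 in RefSeq, had 38.2 and 45.6 RPKM in the ZnF4 mutant and 29.3 and 30.0 RPKM in the ZnF1 mutant, against 29.2 and 34.6 in wt. Its highest libraries were the ZnF4 mutant pair. The ZnF4 mutant had log2 fold change 0.38, SE 0.17, adjusted p = 0.52 without the block and 0.043 with it against wt. It had log2 fold change 0.48, SE 0.17, adjusted p = 0.21 without the block and 0.014 with it against the ZnF1 mutant.

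Rfc3, another small subunit, had 68.4 and 77.1 RPKM in the ZnF4 mutant and 51.0 and 43.6 RPKM in the ZnF1 mutant, against 58.5 and 59.3 in wt. Its groups did not overlap, with the ZnF1 mutant lowest. It had the lowest unadjusted p of all members between the ZnF1 mutant and wt, where it nonetheless failed (log2 fold change -0.31, SE 0.16, adjusted p = 0.66 without the block and 0.13 with it). Between the ZnF4 and ZnF1 mutants it had log2 fold change 0.61, SE 0.16, adjusted p = 0.11 without the block and 0.014 with it. The ZnF4 mutant against wt had log2 fold change 0.30, SE 0.16, adjusted p = 0.66 without the block and 0.14 with it, and failed too. Rfc5, also a small subunit, averaged 12 ± 0.566, 9.45 ± 1.77 and 10.4 ± 1.06 RPKM in the ZnF4 mutant, ZnF1 mutant and wt (SD, n = 2 each), and was called in no comparison. Rfc2, the last of the small subunits, averaged 81.2 ± 2.19, 77 ± 2.9 and 75.4 ± 4.6 RPKM in the same order and was close to level in all groups, with log2 fold changes of 0.11, 0.03 and 0.08 for ZnF4 mutant over wt, ZnF1 mutant over wt and ZnF4 over ZnF1 mutant.

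The polymerases and primase had the smallest median of the roles between ZnF4 mutant and wt. Pola1, the catalytic subunit of polymerase alpha, had 25.4 and 40.5 RPKM in the ZnF4 mutant and 18.3 and 26.4 RPKM in the ZnF1 mutant, against 20.6 and 31.0 in wt. Replicate 2 was higher in each group. The ZnF4 mutant was above wt by 1.23- and 1.31-fold within replicates (log2 fold change 0.33, SE 0.33, adjusted p = 1 without the block and 0.043 with it, with 0.01 without ZnF4 mutant replicate 2 and 0.66 without ZnF4 mutant replicate 1). It was above the ZnF1 mutant with log2 fold change 0.53, SE 0.33, adjusted p = 0.51 without the block and 0.0075 with it, with 0.20 without ZnF4 mutant replicate 2 and 0.85 without ZnF4 mutant replicate 1. Prim1, the catalytic primase subunit, had 44.5 and 56.4 RPKM in the ZnF4 mutant and 35.8 and 40.0 RPKM in the ZnF1 mutant, against 37.6 and 45.9 in wt. It differed with the block between the ZnF4 and ZnF1 mutants (log2 fold change 0.40, SE 0.20, adjusted p = 0.37 without the block and 0.018 with it, with 0.23 without ZnF4 mutant replicate 2 and 0.56 without ZnF4 mutant replicate 1). Pole, the catalytic subunit of the leading-strand polymerase, had 31.5 and 33.9 RPKM in the ZnF4 mutant and 23.7 and 28.7 RPKM in the ZnF1 mutant, against 28.6 and 30.3 in wt. For Pole the ZnF4 mutant pair was above the other 4, and against the ZnF1 mutant it had log2 fold change 0.31, SE 0.16, adjusted p = 0.39 without the block and 0.035 with it, with 0.18 without ZnF1 mutant replicate 1 and 0.45 without ZnF1 mutant replicate 2.

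Pold1, the catalytic subunit of polymerase delta, did not follow the other members. It had 99.2 and 54.8 RPKM in the ZnF4 mutant and 88.7 and 55.0 RPKM in the ZnF1 mutant, against 109.4 and 56.0 in wt. Replicate 1 was above replicate 2 in every group and the ZnF4 mutant was below wt within both (0.907- and 0.979-fold). Its log2 fold change of -0.09 (SE 0.46 without the block, adjusted p = 0.58 with it) was the only negative value among the members for ZnF4 mutant over wt. Pola2, a regulatory subunit of polymerase alpha, averaged 55.6 ± 11.4, 49.3 ± 4.81 and 55.6 ± 13.3 RPKM in the ZnF4 mutant, ZnF1 mutant and wt (SD, n = 2 each), with a log2 fold change of 0.00 between ZnF4 mutant and wt. Prim2, the other primase subunit, averaged 42.4 ± 5.87, 37 ± 2.33 and 37.7 ± 2.97 RPKM in the same order. These 3 genes passed in no comparison, with or without the block.

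Of the genes that bind single-stranded DNA and join the lagging-strand fragments, 3 of 4 passed with the block between the ZnF4 and ZnF1 mutants. All genes were called higher there at a share of 15.9%. Rpa2, a subunit of the single-strand binding complex, had 64.2 and 57.7 RPKM in the ZnF4 mutant and 51.2 and 39.8 RPKM in the ZnF1 mutant, against 49.3 and 41.3 in wt. Its ZnF4 mutant libraries were the highest, and the ZnF1 mutant and wt were level (log2 fold change 0.00, SE 0.19). The ZnF4 mutant exceeded wt with log2 fold change 0.42, SE 0.19, adjusted p = 0.54 without the block and 0.027 with it. It exceeded the ZnF1 mutant with log2 fold change 0.42, SE 0.19, adjusted p = 0.34 without the block and 0.016 with it, with 0.25 without ZnF1 mutant replicate 2 and 0.60 without ZnF1 mutant replicate 1. Fen1, the flap nuclease, overlaps Tmem258 in RefSeq and had 81.7 and 76.1 RPKM in the ZnF4 mutant and 63.5 and 59.7 RPKM in the ZnF1 mutant, against 67.8 and 56.5 in wt. The ZnF4 mutant libraries were again the highest, and against wt Fen1 had log2 fold change 0.34, SE 0.16, adjusted p = 0.56 without the block and 0.046 with it, with 0.21 without wt replicate 2 and 0.47 without wt replicate 1. Against the ZnF1 mutant Fen1 had log2 fold change 0.35, SE 0.16, adjusted p = 0.34 without the block and 0.025 with it.

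Lig1, the ligase that seals the fragments, showed very little spread between replicates, with 130.8 and 131.3 RPKM in the ZnF4 mutant and 89.6 and 90.2 RPKM in the ZnF1 mutant, against 108.7 and 106.7 in wt. No group overlapped another, and the ZnF4 mutant was above wt by 1.2- and 1.23-fold (log2 fold change 0.28, SE 0.14, adjusted p = 0.6 without the block and 0.054 with it). It was above the ZnF1 mutant with log2 fold change 0.54, SE 0.14, adjusted p = 0.11 without the block and 0.0057 with it. The ZnF1 mutant was below wt in both replicates, without passing (log2 fold change -0.26, SE 0.14, adjusted p = 0.71 without the block and 0.073 with it). Rpa1, the large subunit of the single-strand binding complex, averaged 108 ± 7.92, 93.7 ± 9.62 and 100 ± 15.1 RPKM in the ZnF4 mutant, ZnF1 mutant and wt (SD, n = 2 each), and was called in no comparison.

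The nucleotide supply genes included the members with the largest and second largest log2 fold change between ZnF4 mutant and wt. Tyms, thymidylate synthase, which makes the thymidine nucleotide from its uridine counterpart, had 21.6 and 15.3 RPKM in the ZnF4 mutant and 7.8 and 4.4 RPKM in the ZnF1 mutant, against 11.9 and 7.0 in wt. Its 6 libraries fell into a high ZnF4 mutant pair and 4 lower libraries, in which the ZnF1 mutant lay below wt within each replicate number. The ZnF4 mutant was above wt by 1.82- and 2.19-fold (log2 fold change 0.92, SE 0.36, adjusted p = 0.42 without the block and 0.0045 with it, with 0.57 without wt replicate 2 and 1.26 without wt replicate 1). Against the ZnF1 mutant it was above by 2.77- and 3.48-fold (log2 fold change 1.48, SE 0.36, adjusted p = 0.091 without the block and 0.0012 with it). The ZnF1 mutant was at 0.655 and 0.629 of wt within replicates (log2 fold change -0.56, SE 0.36, adjusted p = 0.85 without the block and 0.023 with it). That log2 fold change was -0.91 without ZnF1 mutant replicate 1 and -0.90 without wt replicate 2. It was -0.21 without ZnF1 mutant replicate 2 and also without wt replicate 1. Leaving out these last 2 libraries together gave 0.14, from values of 7.8 and 7.0 RPKM with different replicate numbers. The 0.14 thus includes the replicate difference of Tyms, a mean log2 difference of -0.62 for replicate 2 minus replicate 1. Within replicate numbers 1 and 2 the log2 differences from wt were -0.55 and -0.57. Tyms was the only member called with the block in all 3 comparisons. RefSeq names a pseudogene, Tyms-ps, with which it may share reads.

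Tk1, thymidine kinase, which salvages thymidine, had 40.2 and 15.8 RPKM in the ZnF4 mutant and 20.4 and 7.9 RPKM in the ZnF1 mutant, against 24.8 and 8.6 in wt. The replicates differed more than the groups, and within each replicate number the ZnF4 mutant was the highest, above wt by 1.62- and 1.84-fold. Against wt Tk1 had log2 fold change 0.74, SE 0.72, adjusted p = 1 without the block and 0.0051 with it, with 0.03 without wt replicate 2 and 1.45 without wt replicate 1. Against the ZnF1 mutant Tk1 had log2 fold change 0.93, SE 0.72, adjusted p = 0.6 without the block and 0.002 with it, with 0.28 without ZnF4 mutant replicate 1 and 1.58 without ZnF4 mutant replicate 2. Tk1 overlaps Afmid in RefSeq. Rrm2, the regulatory subunit of ribonucleotide reductase, had 183.8 and 152.5 RPKM in the ZnF4 mutant and 118.0 and 103.5 RPKM in the ZnF1 mutant, against 150.4 and 106.9 in wt. Both ZnF4 mutant libraries were above the other 4, and the difference from the ZnF1 mutant passed with the block (log2 fold change 0.59, SE 0.23, adjusted p = 0.25 without the block and 0.011 with it). Rrm1, the large subunit of the same enzyme, had 146.7 and 177.7 RPKM in the ZnF4 mutant and 123.8 and 129.3 RPKM in the ZnF1 mutant, against 141.3 and 150.9 in wt. The ZnF1 mutant was below wt and the ZnF4 mutant in both libraries, with log2 fold change -0.21, SE 0.17, adjusted p = 1 without the block and 0.19 with it against wt. The ZnF4 mutant differed from the ZnF1 mutant with log2 fold change 0.35, SE 0.17, adjusted p = 0.36 without the block and 0.033 with it, with 0.21 without ZnF4 mutant replicate 2 and 0.49 without ZnF4 mutant replicate 1.

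**Figure D5:**
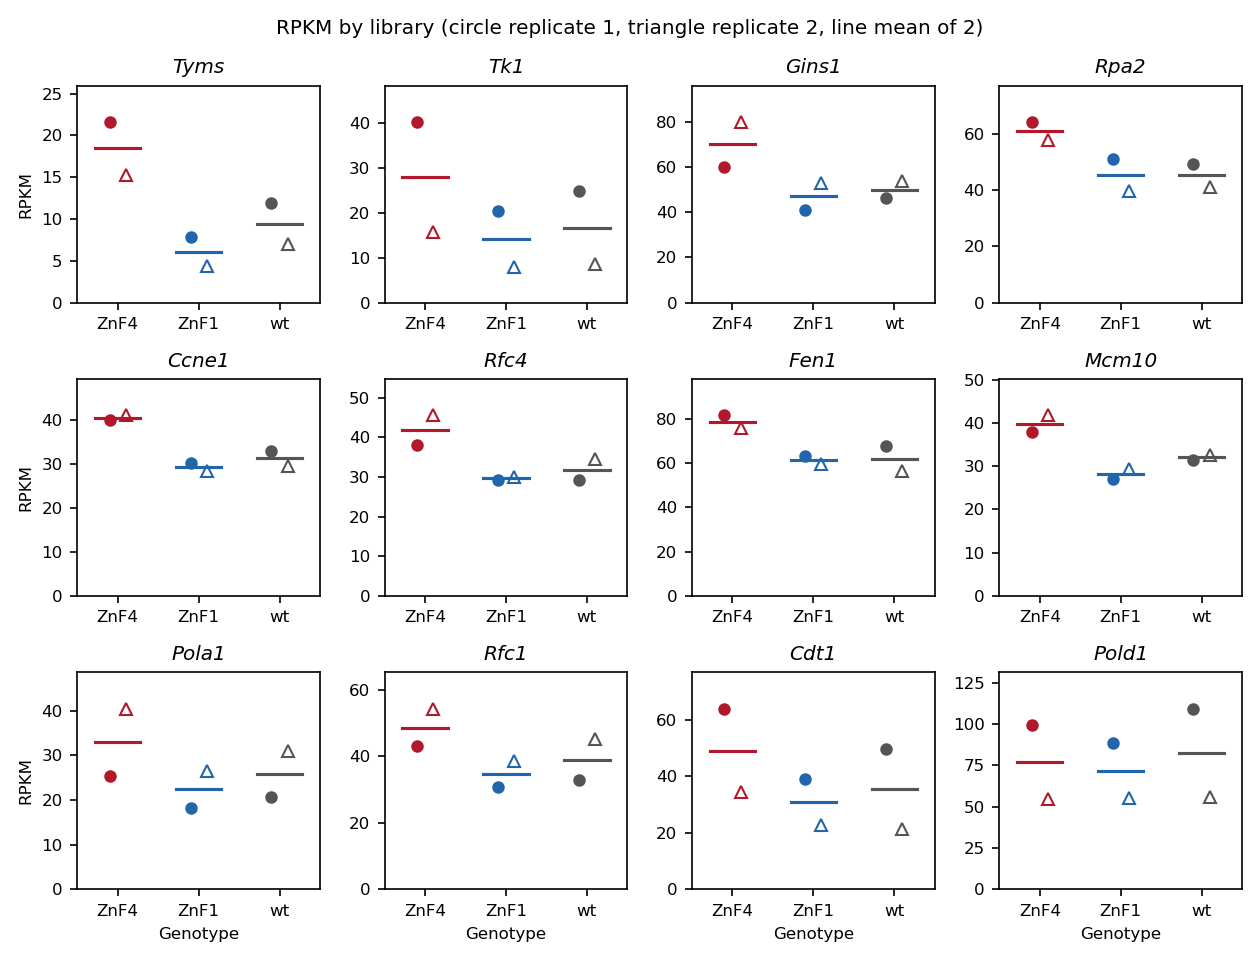
RPKM in each library (circle replicate 1, triangle replicate 2, line the mean of 2) for the 11 members called with the block in the ZnF4 mutant against wt and for Pold1, with a linear axis from 0 in each panel. Within each replicate number the 11 are higher in the ZnF4 mutant than in wt, as Tyms with 21.6 and 15.3 RPKM against 11.9 and 7.0, while Pold1 is not, with 99.2 and 54.8 RPKM in the ZnF4 mutant against 109.4 and 56.0 in wt.

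Among the regulators of the G1/S step, Ccne1, a cyclin E that activates Cdk2, had 40.0 and 41.0 RPKM in the ZnF4 mutant and 30.1 and 28.3 RPKM in the ZnF1 mutant, against 33.0 and 29.6 in wt. Both ZnF4 mutant libraries were above the other 4, close to each other, and above wt by 1.21- and 1.39-fold within replicates (log2 fold change 0.36, SE 0.14, adjusted p = 0.43 without the block and 0.039 with it). Against the ZnF1 mutant Ccne1 had log2 fold change 0.46, SE 0.14, adjusted p = 0.16 without the block and 0.012 with it. Ccne2, the other cyclin E, which overlaps Ints8 in RefSeq, had 41.0 and 70.9 RPKM in the ZnF4 mutant and 31.0 and 46.2 RPKM in the ZnF1 mutant, against 33.0 and 61.7 in wt. Its replicate 2 libraries were the higher in each group. It passed with the block between the ZnF4 and ZnF1 mutants (log2 fold change 0.50, SE 0.42, adjusted p = 0.64 without the block and 0.018 with it, with 0.11 without ZnF4 mutant replicate 2 and 0.89 without ZnF4 mutant replicate 1). E2f1, the transcription factor that activates many of the other members, averaged 24.1 ± 8.06, 19.5 ± 3.96 and 18.8 ± 7.5 RPKM in the ZnF4 mutant, ZnF1 mutant and wt (SD, n = 2 each), and was called in no comparison.

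Of the 3 chromatin factors of the fork, 2 passed with the block between the ZnF4 and ZnF1 mutants, where 15.9% of all genes were called higher. Chaf1a, the large subunit of the histone chaperone CAF-1, had 63.2 and 55.5 RPKM in the ZnF4 mutant and 46.2 and 37.9 RPKM in the ZnF1 mutant, against 54.7 and 42.5 in wt. The ZnF4 mutant pair was the highest. It passed with the block against the ZnF1 mutant (log2 fold change 0.49, SE 0.20, adjusted p = 0.27 without the block and 0.0096 with it). Chaf1b, another subunit, had 47.4 and 37.1 RPKM in the ZnF4 mutant and 38.3 and 31.5 RPKM in the ZnF1 mutant, against 39.3 and 31.1 in wt. Its groups overlapped between ZnF4 mutant and wt, and it had a block call against the ZnF1 mutant (log2 fold change 0.26, SE 0.21, adjusted p = 0.63 without the block and 0.036 with it, with 0.09 without ZnF4 mutant replicate 1 and 0.44 without ZnF4 mutant replicate 2). Uhrf1, which brings the maintenance DNA methyltransferase to replicated DNA, averaged 56.8 ± 15.4, 48.8 ± 17.7 and 55 ± 19 RPKM in the ZnF4 mutant, ZnF1 mutant and wt (SD, n = 2 each). With 0.99- and 1.1-fold within replicates, it was, beside Pold1 and Pola2, 1 of the 3 members that were not above wt within both replicate numbers in the ZnF4 mutant.

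Genes of the same pathway outside the list had medians of the same sign. Of 38 other replication genes that were tested, 0 passed without the block in any comparison. In the ZnF4 mutant against wt 1 had an unadjusted p under 0.05, where 5.92% of all genes were higher at that p. The ZnF1 mutant against wt had 0 (9.17% of all genes higher) and the comparison between the mutants 8 (6.84%). With the block 2 were higher in the ZnF4 mutant against wt, 1 was higher in the ZnF1 mutant against wt and 24 were higher in the ZnF4 than in the ZnF1 mutant, with 0 lower, where the block called 8.02%, 10.4% and 15.9% of all genes higher. The first 2 counts were thus below the share of all genes. Their medians were 0.18, -0.11 and 0.32 in the same order. Cdc7, the kinase that fires origins, had 26.7 and 27.7 RPKM in the ZnF4 mutant, 19.0 and 20.2 in the ZnF1 mutant, against 19.6 and 20.6 in wt. Both ZnF4 mutant libraries were above the rest (log2 fold change over wt 0.42, SE 0.14, adjusted p = 0.3 without the block and 0.017 with it). Gmnn, geminin, the inhibitor of Cdt1, had 23.2 and 22.4 RPKM in the ZnF1 mutant against 25.9 and 36.3 in wt (log2 fold change -0.41, SE 0.20, adjusted p = 0.6 without the block and 0.13 with it).

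Of 16 other G1/S regulators, 0 passed without the block in any comparison. At an unadjusted p under 0.05, where 5.92%, 9.17% and 6.84% of all genes were higher, there were 0, 0 and 5. The order is ZnF4 mutant against wt, ZnF1 mutant against wt and ZnF4 against ZnF1 mutant. With the block, 2 were higher in the first, 0 in the second and 7 in the third, where 2, E2f8 and Rbl2, were lower. Of all genes the block called 8.02%, 10.4% and 15.9% higher in the same order and 19.2% lower in the third, so that the 2 higher and the 2 lower calls were not far from those shares. Their medians were 0.15, -0.13 and 0.28. E2f3, an activating E2F, had 21.6 and 23.0 RPKM in the ZnF4 mutant, 14.9 and 15.4 in the ZnF1 mutant, against 19.6 and 18.0 in wt, so that no group overlapped another. It differed between the mutants with a log2 fold change of 0.53 (SE 0.14, adjusted p = 0.12 without the block and 0.0098 with it), and between ZnF1 mutant and wt with -0.29 (SE 0.14, adjusted p = 0.62 and 0.084). E2f7, a repressive E2F, had 25.4 and 19.6 RPKM in the ZnF4 mutant and 14.4 and 13.5 in the ZnF1 mutant (log2 fold change 0.64, SE 0.19, adjusted p = 0.15 without the block and 0.0076 with it). E2f5, a repressive E2F of resting and differentiating cells, had 14.8 and 14.9 RPKM in the ZnF4 mutant against 11.4 and 11.5 in wt (log2 fold change 0.35, SE 0.14, adjusted p = 0.44 without the block and 0.036 with it). Slbp, which binds histone mRNA, had 33.9 and 29.4 RPKM in the ZnF1 mutant against 39.8 and 41.1 in wt (log2 fold change -0.35, SE 0.16, adjusted p = 0.58 without the block and 0.12 with it).

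The mitotic genes, which act after S phase, showed medians of the same sign, at 0.19 in the ZnF4 mutant against wt, -0.18 in the ZnF1 mutant against wt and 0.41 between the mutants over 30 genes. Without the block 0 passed. At an unadjusted p under 0.05, where 5.92%, 9.17% and 6.84% of all genes were higher, there were 1, 0 and 8 in the same order. With the block 3 were higher in the first, 2 lower in the second and 24 higher in the third, where 8.02% of all genes were called higher, 2.88% lower and 15.9% higher. The count in the first was close to the share of all genes. Prc1, a spindle midzone protein, had 60.0 and 64.8 RPKM in the ZnF4 mutant against 43.3 and 48.1 in wt (log2 fold change 0.44, SE 0.15, adjusted p = 0.3 without the block and 0.015 with it). Cdk1, the mitotic kinase, had 59.2 and 63.8 RPKM in the ZnF4 mutant against 44.6 and 41.9 in the ZnF1 mutant (log2 fold change 0.50, SE 0.14, adjusted p = 0.13 without the block and 0.011 with it). The medians of these lists and of the members were not tested against each other.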

How the data were processed

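Expression was measured by RNA sequencing of 6 libraries, 2 per genotype, grouped by the genotype in the labels. The values are RPKM per RefSeq transcript as deposited, to 1 decimal, with transcript lengths, per the file headers; the authors' alignment used TopHat and bedtools with the mm9 build, per the submitters' processing notes, without versions. No source used here states whether strand was used or how shared reads of overlapping genes or copies were assigned. Depth is unknown, so no counting interval is given; the deposited RPKM summed to 287007 to 345766 per library, with 10582 to 11119 genes at 1 RPKM or more.

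The 26531 rows were summed to 22099 genes by symbol; 1 row without a gene was left out, and 39 of 40 symbols stored as numbers were restored through their accession. The 9 members with several rows were summed. The test covered the 11345 genes that reached 1 RPKM in 2 or more libraries. It was limma 3.58.1 (R 4.3.3) on log2(RPKM + 1), a scale that understates the change of low genes, with a trend of the variance on level, fitting 3 group means to the 6 libraries together, tested in both directions, Benjamini-Hochberg adjusted over all genes tested, threshold 0.05. The fit had 3 residual and 2.32 prior degrees of freedom, and printed SEs are from it. A second fit added a block for the replicate number and had 2 residual degrees of freedom and 3.06 prior ones. The numbers were taken to pair the libraries because deviations from group means correlated over all tested genes at 0.754 (ZnF4 mutant and wt), 0.5 (ZnF1 mutant and wt) and 0.715 (ZnF4 and ZnF1 mutants); what the numbers stand for is not stated in the labels. The scripts were tested on simulated data.

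The members and lists were chosen with earlier results of these data known. Values of every library were printed for the members called in either fit and the 5 with the lowest p in each comparison; of the other replication, G1/S and mitotic lists, the 3 lowest p in each comparison were named. Supt16 and Ticrr were not found in the table. Promoters and pseudogene names came from RefSeq (GRCm38.p6, used for names and sequences only and not joined to mm9 coordinates), and GC content from transcripts matched by accession (98.2% of tested genes). Other pseudocounts, filters, scalings, row choices and left-out libraries were tried.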

Additional observations from a re-analysis of the deposited data

How the results depend on the processing

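With the replicate block, in a paired fit, the members called were 1 in the ZnF1 mutant against wt, 11 in the ZnF4 mutant against wt and 29 between the mutants, against 0 in each without it; the genes called over the whole table were 1502, 1809 and 3979, against 0, 309 and 609 without it. No other setting without the block called a member. For ZnF1 mutant against wt, median centring called 1 gene. For ZnF4 mutant against wt, a filter of at least 5 RPKM left 176 genes called, a fit of the 4 libraries compared 86, and leaving out 1 library 0 to 88. For ZnF4 against ZnF1 mutant the same settings left 323, 234 and 0 to 262. Without wt replicate 1 and ZnF1 mutant replicate 2 together, 0 genes were called in both of these comparisons.

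The members' median log2 fold change ranged over single left-out libraries from 0.21 to 0.29 for ZnF4 mutant against wt, from -0.17 to -0.06 for ZnF1 mutant against wt and from 0.3 to 0.41 for ZnF4 against ZnF1 mutant. Without the pair of libraries rich in granulocyte RNA the ZnF1 mutant median was 0.03, a turned sign, and the Tyms value 0.14, against -0.91 to -0.21 over single left-out libraries. With the pair left out, ZnF1 mutant replicate 1 is set against wt replicate 2, so genotype and replicate number cannot be told apart. The Cdt1 value in the ZnF4 mutant was -0.09 without wt replicate 2, in a range of -0.09 to 1.1. These are fits without the block, and the values also carry the replicate difference. In settings chosen after seeing the data, the block combined with other choices called 10 to 11 members in the ZnF4 mutant against wt and 29 to 32 between the mutants. The share of all genes called in those settings is not given, so these counts are not set against the whole table. Over left-out libraries with the block the counts were 0 to 6 in the ZnF4 mutant against wt, 0 to 1 in the ZnF1 mutant against wt, and 2 to 17 between the mutants (without a ZnF1 mutant library 16 to 17, without a wt library 14), in fits with 1 residual degree of freedom that assume a lone library varies like the rest. With the pair left out, the block could not be fitted as a test. The causes of these changes were not tested, beyond the fewer libraries in each such fit.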
